A study of Homo sapiens with 21 samples.

Results

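HNRNPK clusters assigned to the 5'UTR of an mRNA were described in 4 PAR-CLIP libraries. They were chosen by the class that the deposited cluster tables give each cluster, and 2512 of 778762 clusters carried the 5'UTR class. The parental cytoplasmic library held 559 of them, the *KRT19* KO cytoplasmic library 780, the parental nuclear library 603 and the *KRT19* KO nuclear library 570. Together they named 1254 genes.

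All libraries came from MDA-MB-231, a human triple-negative breast cancer cell line, either parental or with *KRT19* (keratin 19, an epithelial intermediate filament protein) disrupted by CRISPR-Cas9. Cells were labelled with 4-thiouridine, crosslinked by UV and separated into a cytoplasmic and a nuclear fraction, and HNRNPK with its bound RNA was immunoprecipitated with an anti-HNRNPK antibody, which the labels give as anti-HNRNPK/J. Each of the 4 conditions had 1 library and therefore no replicate, so no difference between libraries could be tested. The 95% intervals below are exact binomial intervals that cover counting error only, and any PCR copies left among the reads are not independent molecules.

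HNRNPK is a poly-C binding protein whose KH domains hold short runs of cytidines in single-stranded RNA. It shuttles between nucleus and cytoplasm, where it acts on splicing, RNA stability and translation. The 5'UTR is the stretch between the cap and the start codon that the small ribosomal subunit scans, and proteins bound there can change how often a start codon is used. In PAR-CLIP a crosslinked 4-thiouridine is read as C, so a T-to-C change marks contact with the protein, and RNase T1, which trims the RNA, cuts after G.

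The sites that the results turn on are shown first. Their genes had the highest 5'UTR levels in all 4 libraries together or in 1 of them, while the site itself need not be present in every library. Each sequence is the RNA-strand sequence of at most 30 bases around the centre of the gene's cluster with the highest level, in reads per 1000000 cluster reads of its library, in hg19 (GRCh37) coordinates, and read 5′ to 3′. Capitals mark matches to the pyrimidine-C motif, which is read as TTCCC or as the word TCCCC or else with A as TACCC, and with A in first place as ATCCC or as the word ACCCC or else as AACCC. Matches may overlap and were searched on the strand of the RNA only. Sites in a 5'UTR exon of a canonical transcript come first. That is the transcript Ensembl picks to stand for a gene, and any protein-coding gene on the strand was counted, whether or not it was the gene named by the cluster.
PTP4A2, chr1:32384688-32384717 (-), 5'UTR exon 2: tcactTTCCCCatcacactcacacgcacgc
DR1, chr1:93811994-93812023 (+), 5'UTR exon 1: tttcTTCCCaaactcatcctaaatctctca
PTGES3, chr12:57081988-57082017 (-), 5'UTR exon 1: ccttttcctacactttcctcttcTCCCCga
XPO1, chr2:61764945-61764974 (-), 5'UTR exon 1: cagccgggcgggagcatttaTTCCCCagat
EIF4G2, chr11:10830307-10830335 (-), 5'UTR exon 1: TCCCCtTTCCCCtcccTTCCCtATCCCCg
PPP1R10, chr6:30584507-30584536 (-), 5'UTR exon 2: caaccaccctcccTTCCCaaaccacccaaa
PTP4A1, chr6:64286635-64286664 (+), UTR of PTP4A1 and of a second protein-coding gene model, not the same kind of UTR in both: tcacttatcattacttacaacttcatactc
ZC3H11A, chr1:203771334-203771363 (+), also an exon of ZBED6: tatatatacatacatccatattatacataa
C6orf62, chr6:24720151-24720180 (-), 5'UTR outside any canonical transcript: ttTACCCtctcccgcccactccacccgggc
HNRNPC, chr14:21732514-21732543 (-), intron of a canonical transcript: tccttatttaaaacatcttTTCCCCtaaca
CNOT2, chr12:70730513-70730539 (+), intron of a canonical transcript: attttttcATCCCtttaatcaTTCCCg
PABPC1L, chr20:43560441-43560470 (+), intron of a canonical transcript: atttctttactatctacactattcTACCCt
MTRNR2L12, chr3:96337004-96337033 (-), nuclear copy of mitochondrial 16S rRNA: taaccaaaccattTACCCaaataaagtata

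EIF4G2 had 4 separate blocks of the motif in 29 bases. The sites of PTP4A1 and ZC3H11A had no match. Over whole clusters, C made up 33.4% of the bases in parental cytoplasm, 36.2% in *KRT19* KO cytoplasm, 36.0% in parental nucleus and 38.1% in *KRT19* KO nucleus. G made up 12.7 to 15.7% of the bases. With each cluster weighted by its reads, C was 32.1, 25.4, 30.1 and 39.0% in the same order, so in *KRT19* KO cytoplasm, where MTRNR2L reads were 75.9% of 5'UTR reads, it lay below the 28.5% of the neighbouring genome given below.

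In every library the 5'UTR clusters had more C and less A than the coding, 3'UTR and intronic clusters of the same library. In parental cytoplasm C was 29.3% of the bases of coding, 23.7% of 3'UTR and 25.9% of intronic clusters, and A was 21.4% of 5'UTR bases against 28.6, 29.6 and 31.4%. The motif was present in 42.8% of 5'UTR clusters in parental cytoplasm (interval 38.6 to 47.0%), 41.8% in *KRT19* KO cytoplasm (38.3 to 45.3%), 43.9% in parental nucleus (39.9 to 48.0%) and 45.3% in *KRT19* KO nucleus (41.1 to 49.5%). These intervals overlapped. The share was at most 33.8% in coding, 34.6% in 3'UTR and 33.3% in intronic clusters in any of the 4 libraries. A pair of separate CCC runs, or more, was found in 26.3 to 30.2% of 5'UTR clusters, against 10.5 to 16.9% of coding, 10.3 to 17.7% of 3'UTR and 11.1 to 14.8% of intronic clusters.

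**Figure D1:**
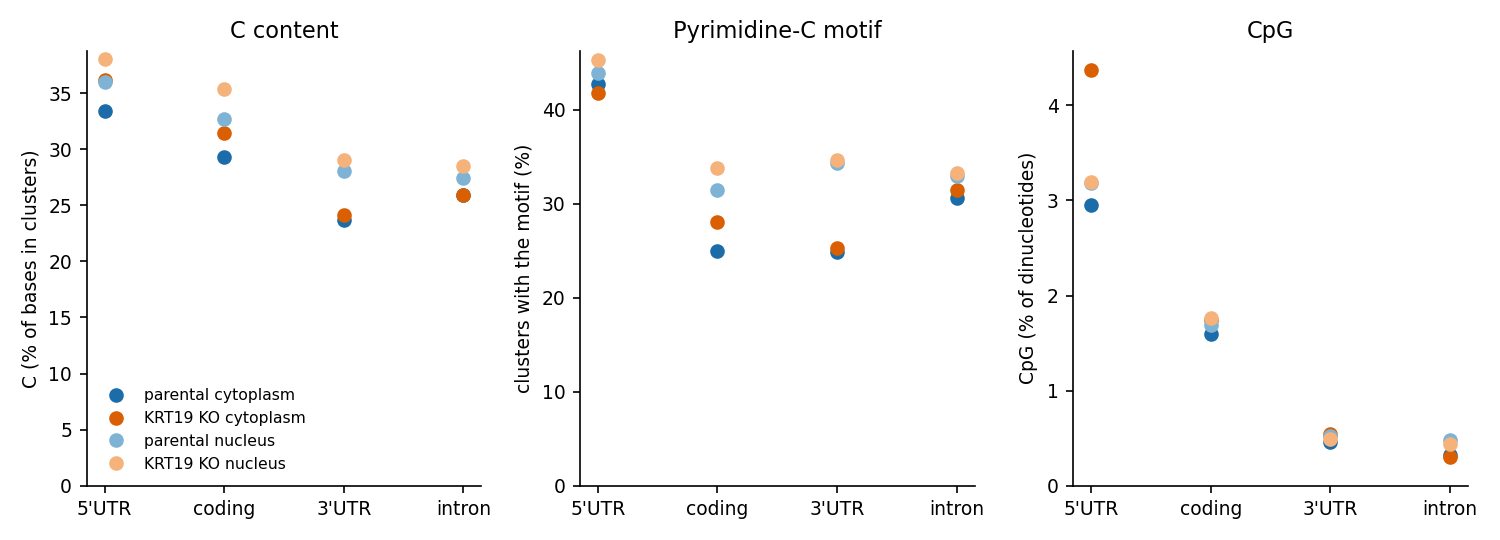
C content (percent of bases), share of clusters with the pyrimidine-C motif (percent) and CpG (percent of dinucleotides) of clusters assigned to the 5'UTR, coding sequence, 3'UTR and intron, with 1 point per library. In all 4 libraries the 5'UTR point is the highest of the 4 classes in each panel.

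The genome around these sites shared part of this composition. Windows of the same length 100 nt up- and downstream of each 5'UTR cluster held 26.9 to 28.5% C and 25.5 to 27.8% G, and the motif was in at most 17.8% of them in any library. T was 28.1 to 32.2% in clusters and 23.6 to 25.6% in the windows. The clusters thus held more C and T and less G than the sequence beside them. The last base of the cluster was G, after which RNase T1 cuts, in 51.4 to 58.8% of them, and the part of the nuclease and of the need for a converted T in this composition was not tested. The most frequent tetramer was TCCC, in 46.1% of 5'UTR clusters on average over libraries against 17.3% of the windows, followed by CTCC (41.3 against 19.7%) and TTCC (40.0 against 15.5%). CCCC came ninth, with 31.7 against 16.4%. An ATG, the start codon triplet, was in 9.48% of clusters in parental cytoplasm, 7.05% in *KRT19* KO cytoplasm, 9.45% in parental nucleus and 5.26% in *KRT19* KO nucleus, and in 21.6 to 25.2% of the windows. Clusters assigned to the start codon form a class of their own and are not members here, while the windows had no such limit. The low ATG share is thus partly set by the choice of clusters, and nothing is drawn from it.

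CpG, which is frequent in the CpG islands over which many transcripts start, made up 2.96 to 4.37% of dinucleotides in 5'UTR clusters, against 1.59 to 1.76% in coding, 0.458 to 0.545% in 3'UTR and 0.300 to 0.481% in intronic clusters. The windows around the sites had 4.49 to 5.86%. The clusters were therefore richer in CpG than the other classes but poorer than the sequence beside them.

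The share of clusters in the 5'UTR was 0.277% in parental cytoplasm (interval 0.255 to 0.301%), 0.439% in *KRT19* KO cytoplasm (0.409 to 0.471%), 0.301% in parental nucleus (0.277 to 0.326%) and 0.286% in *KRT19* KO nucleus (0.263 to 0.311%). The *KRT19* KO cytoplasmic library was highest and the other three overlapped. Coding clusters were likewise most frequent there, at 4.79% against 2.81% in parental cytoplasm and 1.52 to 1.65% in the nuclear libraries. So were 3'UTR clusters, at 16.0% against 10.7% in parental cytoplasm and 3.86 to 4.05% in the nuclear libraries. Intronic clusters were 61.2 to 67.3% in the other libraries and least frequent, at 49.7%, in *KRT19* KO cytoplasm. That library also had the fewest 5'UTR clusters resting on 1 unique read, 11.7% against 25.4% in parental cytoplasm and 35.4 to 36.0% in the nuclear libraries, and the part of this difference in the cluster shares was not tested.

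The order by reads differed and turned on a few clusters in MTRNR2L genes. These are nuclear copies of the mitochondrial 16S rRNA region that encode humanin-like peptides, and their 5'UTR clusters, 6 in parental cytoplasm, 11 in *KRT19* KO cytoplasm, 4 in parental nucleus and 5 in *KRT19* KO nucleus, lay 1 to 4 edits from the mitochondrial genome. Clusters on the mitochondrial genome itself held 0.708, 4.64, 0.918 and 3.72% of cluster reads in the same order. Whether a read came from the mitochondrial rRNA or from such a copy was not tested. With them, 0.430% of cluster reads fell in 5'UTR clusters in parental cytoplasm, 2.65% in *KRT19* KO cytoplasm, 0.594% in parental nucleus and 0.384% in *KRT19* KO nucleus. Without them the values were 0.425, 0.638, 0.354 and 0.378%. The *KRT19* KO cytoplasmic library kept the highest share, and parental cytoplasm moved from below parental nucleus to above it.

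A cluster in MTRNR2L12 held 123973 of the 124803 MTRNR2L reads of *KRT19* KO cytoplasm. No mitochondrial cluster of that library lay at its best-matching mitochondrial position. The locus was present in all 4 libraries, with 36909 reads in parental cytoplasm, 123973 in *KRT19* KO cytoplasm, 8387 in parental nucleus and 17961 in *KRT19* KO nucleus. The cluster began at base 96336997 of chromosome 3 in *KRT19* KO cytoplasm and 96336996 in parental nucleus, where it was assigned to the 5'UTR. It began at 96337000 in parental cytoplasm and *KRT19* KO nucleus, where it had no annotation. Its class thus differed between libraries together with an edge that lay 3 or 4 bases apart. Counted by position and whatever the class, reads at loci with a 5'UTR cluster in any library were 1.09% of cluster reads in parental cytoplasm, 2.68% in *KRT19* KO cytoplasm, 0.594% in parental nucleus and 0.937% in *KRT19* KO nucleus.

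**Figure D2:**
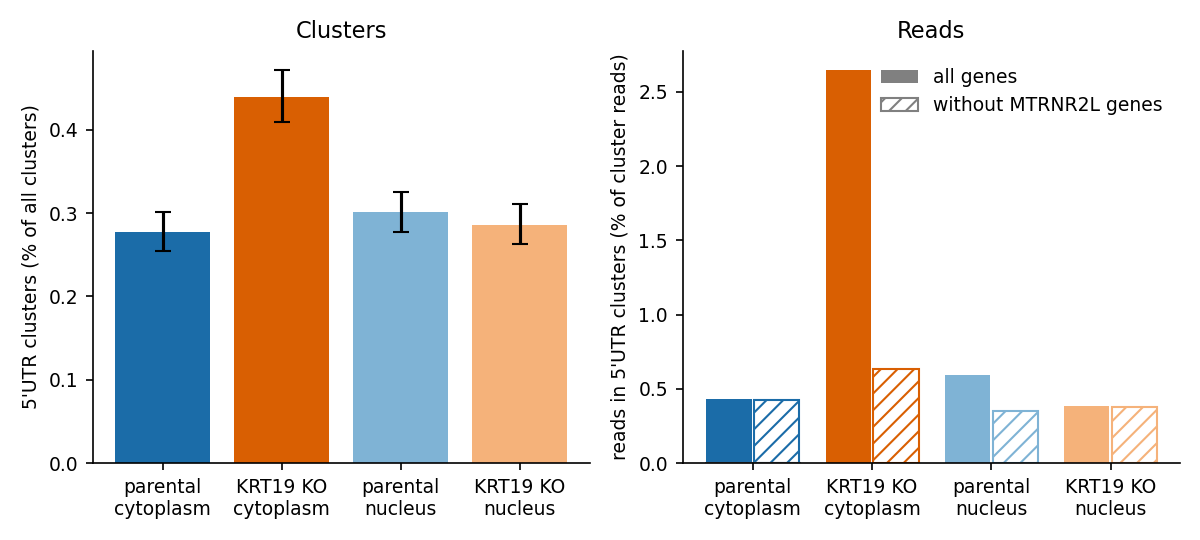
Share of clusters assigned to the 5'UTR (left, percent of all clusters, error bars are 95% exact binomial intervals) and share of cluster reads in them (right, percent), with 1 bar per library. On the right, filled bars are all genes and hatched bars leave out MTRNR2L genes, which lowers *KRT19* KO cytoplasm from 2.65 to 0.638% and parental nucleus from 0.594 to 0.354%.

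Conversion was lower in the cytoplasm than in the nucleus of both genotypes, and the gap was wider without MTRNR2L genes. Without them the share of 5'UTR reads with a T-to-C change was 54.8% in parental and 55.5% in *KRT19* KO cytoplasm. In parental and *KRT19* KO nucleus it was 70.8 and 68.4%. The PTP4A2 site was below these, with 34.7% of 4412 parental and 41.6% of 8414 *KRT19* KO cytoplasmic reads converted. With all genes the share was 55.3, 65.8, 60.1 and 68.5%, and in parental cytoplasm 59.9% without the PTP4A2 site. The reads of 3'UTR clusters showed the same order, with 53.4 and 55.1% in cytoplasm and 65.8 and 69.3% in nucleus, while coding clusters had 63.9 and 55.3% in cytoplasm and 63.7 and 52.2% in nucleus. Intronic clusters had 74.3% in parental and 68.0% in *KRT19* KO cytoplasm, against 73.9 and 78.5% in nucleus, so in parental cells they were not lower in the cytoplasm. The median 5'UTR cluster had 88.9% converted reads in parental cytoplasm and 76.4% in *KRT19* KO cytoplasm, and in the nuclear libraries 61.7% of parental and 66.5% of *KRT19* KO clusters had every read converted. The median cluster carried 10 or 11 reads in every library and measured 25 to 29 nt. Clusters resting on 1 unique read were 25.4% of 5'UTR clusters in parental and 11.7% in *KRT19* KO cytoplasm. In parental and *KRT19* KO nucleus they were 36.0 and 35.4%. A cluster needs a converted T, and the part of this need and of depth in the conversion shares was not tested.

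Where these clusters lay in their genes was read from the GENCODE version 44 annotation lifted to GRCh37. All 5'UTR clusters had the reference sequence at their stated position, except for 1 parental nuclear cluster on a sequence that the reference used here does not hold. Some annotated transcript had a 5'UTR at the cluster centre for 82.5 to 89.4% of clusters. By canonical transcripts, the centre lay in a 5'UTR exon for 51.9% of clusters in parental cytoplasm (interval 47.6 to 56.1%), 62.6% in *KRT19* KO cytoplasm (59.1 to 66.0%), 44.8% in parental nucleus (40.8 to 48.8%) and 39.6% in *KRT19* KO nucleus (35.6 to 43.8%). It lay in an intron of a canonical transcript for 33.5, 20.4, 40.5 and 39.6%. The nuclear libraries thus had the larger share of clusters in canonical introns, where a 5'UTR exon of another transcript and unspliced RNA cannot be told apart from these reads. Some of these sites, such as that of PABPC1L, had no 5'UTR in any transcript of the annotation used here.

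Clusters in canonical 5'UTR exons were richer in C than those in canonical introns, with 35.5 against 31.0% in parental cytoplasm, 38.2 against 32.5% in *KRT19* KO cytoplasm, 39.1 against 32.4% in parental nucleus and 40.7 against 35.2% in *KRT19* KO nucleus. The whole 5'UTRs of those canonical transcripts had 30.2 to 32.0% C and 27.2 to 28.3% G. A polypyrimidine tract precedes most exons. The 3' end of an intronic 5'UTR cluster lay between 2 bases past and 10 bases before an annotated acceptor in 5.35% of them in parental cytoplasm, 3.77% in *KRT19* KO cytoplasm, 4.51% in parental nucleus and 7.96% in *KRT19* KO nucleus. The PABPC1L site shown above, from parental nucleus, was one of these, as its cluster ended directly before an annotated acceptor.

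Within canonical 5'UTRs the clusters lay away from the cap, taken as the annotated start of the canonical transcript and not measured in these cells. The median cluster centre was 229 nt from the cap in parental cytoplasm, 198 nt in *KRT19* KO cytoplasm, 212 nt in parental nucleus and 207 nt in *KRT19* KO nucleus, in 5'UTRs with a median length of 404 to 458 nt. The median distance to the start codon was 161, 148, 186 and 135 nt. With each 5'UTR cut into 4 equal parts, the one next to the cap held 13.1 to 17.4% of the clusters and the one next to the start codon 25.6 to 32.4%. Between 10.0 and 11.5% lay within 50 nt of the cap and between 18.1 and 20.9% within 50 nt of the start codon. The first exon held 74.8 to 83.0% of them. These distances depend on the start that is chosen. For 5'UTR clusters on any protein-coding gene, the median distance from the nearest annotated start was 66 to 88 nt. Between 37.7 and 44.1% lay within 100 nt of it.

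Most genes had a lone 5'UTR cluster, as 82.8 to 84.7% of the genes with any did in each library. ZC3H11A (a zinc finger protein tied to mRNA export), C6orf62, HNRNPC, CNOT2 and CCDC14 had the most over all libraries. ZC3H11A had 11 clusters in parental cytoplasm, 12 in *KRT19* KO cytoplasm and 4 in each nuclear library, and C6orf62 had 6, 12, 6 and 6. All clusters of ZC3H11A lay where more than 1 canonical transcript was annotated, and the one printed above is also in an exon of ZBED6, a transcription factor gene inside ZC3H11A, so its reads cannot be given to either gene. All clusters of HNRNPC, CNOT2 and CCDC14 lay in introns of a canonical transcript. The median gene had 5.24% of its cluster reads in the 5'UTR in parental cytoplasm, 5.07% in *KRT19* KO cytoplasm, 6.67% in parental nucleus and 11.1% in *KRT19* KO nucleus.

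Of the 1254 genes, 89 (7.10%) had a 5'UTR cluster in all 4 libraries and 822 (65.6%) in 1 library. The 12 with the highest mean level among the 89, in 5'UTR reads per 1000000 cluster reads (RPM), are described next. More of an mRNA and more HNRNPK on each copy of it cannot be told apart in these reads.

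PTP4A2, a protein tyrosine phosphatase that promotes growth, had 4412 reads in parental cytoplasm, 8414 in *KRT19* KO cytoplasm, 146 in parental nucleus and 145 in *KRT19* KO nucleus, all in the site shown above, whose cluster centre lay 36 to 42 nt before the start codon. The cytoplasmic libraries were far above the nuclear ones. Its level was 19.3 times higher in cytoplasm than in nucleus in parental cells (counting interval 16.3 to 22.9) and 30.4 times in *KRT19* KO cells (25.8 to 36.0). The other clusters of PTP4A2 were 9.12 and 7.48 times higher in cytoplasm. The 5'UTR site held 46.8% of all PTP4A2 cluster reads in parental cytoplasm and 65.4% in *KRT19* KO cytoplasm.

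PTP4A1, its paralog, had a site with 1012 reads in parental cytoplasm, 2226 in *KRT19* KO cytoplasm and 16 in each nuclear library. A second site beside it had 1204 reads in parental cytoplasm and 41 in *KRT19* KO nucleus, and in *KRT19* KO cytoplasm a cluster of 1559 reads there was assigned to the start codon. The 5'UTR total of PTP4A1 in *KRT19* KO cytoplasm, 2231 reads, therefore leaves that site out.

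DR1, a repressor of RNA polymerase II transcription, had 1100 reads in parental cytoplasm, 2189 in *KRT19* KO cytoplasm, 340 in parental nucleus and 143 in *KRT19* KO nucleus. C6orf62 had 856, 2330, 316 and 238 reads, and 74.4 to 85.8% of all its cluster reads were in the 5'UTR. ZC3H11A had 1462, 3221, 82 and 162 reads, to which a cluster of 404 reads in *KRT19* KO cytoplasm would be added where parental cytoplasm had a 5'UTR cluster but which was assigned to an intron and 3'UTR junction. In these genes as in PTP4A2 the order was *KRT19* KO cytoplasm, parental cytoplasm and then the nuclear libraries, also in RPM.

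PTGES3, the p23 co-chaperone of HSP90, had the smallest range of these 12 genes, with 521, 486, 212 and 186 reads in parental cytoplasm, *KRT19* KO cytoplasm, parental nucleus and *KRT19* KO nucleus, which is 93.8, 78.2, 59.9 and 57.2 RPM. XPO1, the nuclear export receptor, had 240, 579, 18 and 176 reads in the same order, and its deepest site in the cytoplasmic libraries had no cluster in parental nucleus. SLC25A51, the mitochondrial NAD+ transporter, had 380, 754, 87 and 24 reads. MTRNR2L8 had 214, 643, 67 and 124 reads, with the reservation on mitochondrial reads given above.

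HNRNPC, which binds poly-U tracts in pre-mRNA, was higher in the nucleus, with 517 reads in parental cytoplasm, 765 in *KRT19* KO cytoplasm, 851 in parental nucleus and 1307 in *KRT19* KO nucleus. That is 93.1, 123, 241 and 402 RPM. PABPC1L, a poly(A) binding protein, had 17, 33, 395 and 240 reads, and its level in *KRT19* KO cytoplasm was 0.0720 times that in *KRT19* KO nucleus (0.0484 to 0.104). CNOT2, a subunit of the CCR4-NOT deadenylase, had 170, 82, 174 and 229 reads. All 5'UTR clusters of these 3 genes lay in introns of a canonical transcript. The SLC25A51 site lay outside the canonical transcript of SLC25A51 and in an intron of another protein-coding gene model that spans it.

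**Figure D3:**
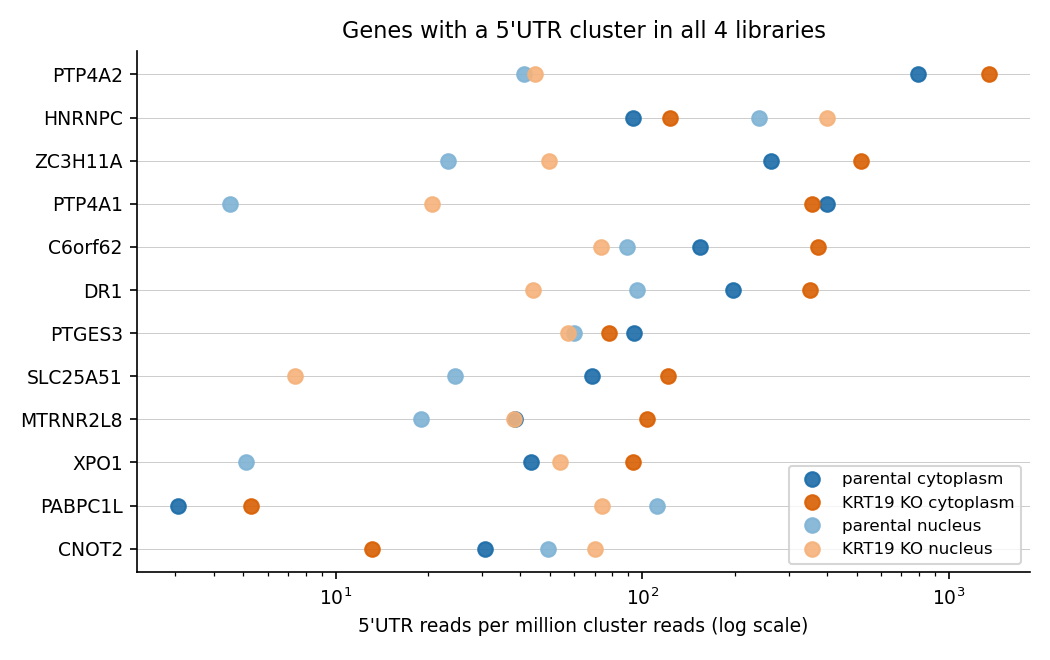
5'UTR RPM (log axis) of the 12 genes with the highest mean among those with a 5'UTR cluster in all 4 libraries, with 1 point per library. PTP4A2 reaches 795 in parental and 1354 in *KRT19* KO cytoplasm and 41.3 to 44.6 in the nuclear libraries, while HNRNPC, PABPC1L and CNOT2 are highest in a nuclear library.

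Clusters of any class and library that overlapped on a strand were merged, which gave 1858 loci with a 5'UTR cluster, and the RPM ratio was taken at loci with a cluster in both libraries and 50 reads or more in the pair. In parental cells 75 5'UTR loci could be compared, and 19 (25.3%) were at least 2 times higher in cytoplasm and 26 (34.7%) at least 2 times lower. Over all loci 18.9% were higher and 35.9% lower. In *KRT19* KO cells 35 of 94 (37.2%) were higher, against 28.8% over all loci, and 23 (24.5%) were lower, against 39.3%. The median log2 ratio of cytoplasm to nucleus was -0.29 at 5'UTR loci and -0.54 over all loci in parental cells, and 0.35 and -0.46 in *KRT19* KO cells. At 3'UTR loci it was 2.13 and 2.32, at coding loci 0.38 and 1.10, and at intronic loci -0.81 and -1.20. The 5'UTR median stood between coding and intronic loci in both genotypes.

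The 5'UTR loci were split by what a canonical transcript has there. At the 39 loci in canonical 5'UTR exons the median log2 ratio in parental cells was 0.09, with 12 at least 2 times higher in cytoplasm and 5 lower, and at the 25 in canonical introns it was -1.42, with 1 higher and 18 lower. In *KRT19* KO cells the medians were 0.67 at 51 exonic loci, with 23 higher and 5 lower, and -1.23 at 26 intronic loci, with 4 higher and 16 lower. The medians of the intronic group were below 0, as were those of intronic loci.

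**Figure D4:**
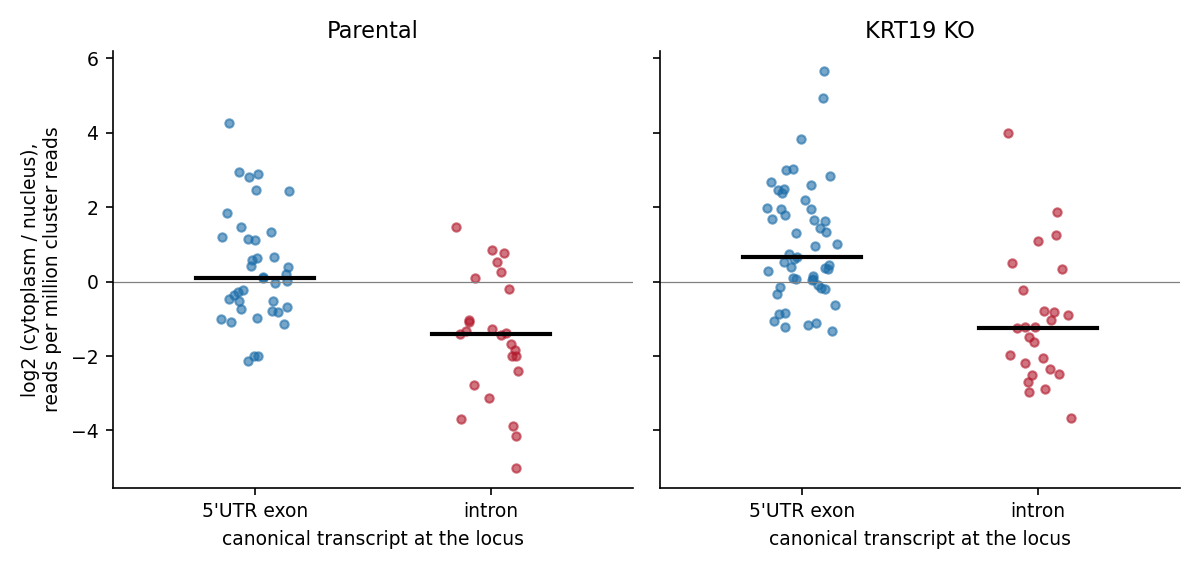
Log2 ratio of cytoplasm to nucleus in RPM at 5'UTR loci of parental (left) and *KRT19* KO cells (right), with 1 point per locus and the median as a line. Loci in a 5'UTR exon of a canonical transcript have medians of 0.09 and 0.67, and those in an intron of it -1.42 and -1.23.

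Among genes with 30 5'UTR reads or more in both parental libraries, the lowest ratios of cytoplasm to nucleus were those of CCDC14, TTLL3 (a tubulin glycine ligase), LTB4R (the leukotriene B4 receptor) and MYOF (myoferlin, a membrane repair protein). CCDC14 had 47 reads in parental cytoplasm and 211 in parental nucleus, a ratio of 0.142 (0.101 to 0.196). MYOF, with 39 and 109 reads, was the only one of the 4 whose site lay in a canonical 5'UTR exon. The highest were PTP4A2, ZC3H11A, CPEB4 (a cytoplasmic polyadenylation factor), with 212 and 31 reads and a ratio of 4.36 (2.98 to 6.58), and PSMG3 (a proteasome assembly chaperone), with 238 and 42 reads and a ratio of 3.61 (2.59 to 5.14). The sites of CPEB4 and PSMG3 lay in canonical 5'UTR exons.

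Between genotypes, 5'UTR loci in the cytoplasm were on balance higher in *KRT19* KO. Of 106 loci, 36 (34.0%) were at least 2 times higher, against 20.9% over all loci, and 4 (3.77%) at least 2 times lower, against 21.1%. The median log2 ratio of *KRT19* KO to parental cytoplasm was 0.71 at 5'UTR loci and -0.01 over all loci. It was 1.16 at coding, 0.52 at 3'UTR and -0.62 at intronic loci, so the medians of all mRNA exon classes were above 0. RPM values are shares of each library, so a fall in one class raises the others. In the nucleus 12 of 69 loci (17.4%) were at least 2 times higher in *KRT19* KO, against 18.9% over all loci, and 17 (24.6%) lower, against 26.6%, with medians of -0.07 and -0.18. The nuclear shares were near those of all loci.

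IL11, a cytokine of the interleukin 6 family, had the highest ratio of *KRT19* KO to parental cytoplasm among genes with 30 reads or more in both, with 64 reads in parental and 356 in *KRT19* KO cytoplasm, which is 4.97 times in RPM (interval up to 6.59). Its other clusters were 5.45 times higher as well. PRPF4B, a kinase of the spliceosome, had 47 and 248 reads, or 4.71 times in RPM (3.44 to 6.58), with its other clusters 1.80 times higher. SLC20A1, a phosphate transporter, had 43 and 167 reads, a ratio of 3.47 (2.47 to 4.97), beside 0.722 for its other clusters.

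At the lower end, POLR2A, the largest subunit of RNA polymerase II, had 150 reads in parental and 41 in *KRT19* KO cytoplasm, a ratio of 0.244 (0.168 to 0.347), while its other clusters were at 0.953. The difference came from a cluster of 109 reads in parental cytoplasm, where *KRT19* KO cytoplasm had no cluster, as the second site had 41 reads in each. CNOT2 (0.431), ANKLE2 (0.498) and FAM122B (0.531) followed. In all, 46 of 68 such genes had a higher level in *KRT19* KO cytoplasm. By locus, 79 of the 106 5'UTR loci (74.5%) were higher there, against 49.8% over all loci.

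A 5'UTR cluster overlapped a cluster of any other library, of any class and by 1 nt or more, in 49.0% of cases for parental cytoplasm, 38.8% for *KRT19* KO cytoplasm, 44.4% for parental nucleus and 43.3% for *KRT19* KO nucleus. Between single pairs the share was 20.3 to 34.2%, highest for parental against *KRT19* KO cytoplasm. 3'UTR clusters of parental cytoplasm overlapped *KRT19* KO cytoplasm in 48.0% of cases, coding ones in 29.1% and intronic ones in 22.8%, against 34.2% of 5'UTR ones. Against parental nucleus the order was another, with 27.7% of 5'UTR, 15.3% of 3'UTR, 11.5% of coding and 24.8% of intronic clusters of parental cytoplasm. Of the 1858 loci, 1420 (76.4%) had clusters in 1 library and 54 (2.91%) in all 4, against 77.4 and 1.68% of all loci, so the share found in 1 library was near that of all loci. Where a partner was found it was also a 5'UTR cluster in 96.9% of cases or more.

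Recovery rose with depth. Of parental cytoplasmic 5'UTR clusters with 5 to 9 reads, 12.2% (interval 8.45 to 16.9%) overlapped a *KRT19* KO cytoplasmic cluster, and of those with 100 reads or more 85.3% did (interval from 68.9%). In *KRT19* KO cytoplasm the shares that overlapped parental cytoplasm were 6.50 and 71.9%. Of parental nuclear clusters with 100 reads or more, 87.0% overlapped a *KRT19* KO nuclear one. The tables list only clusters with 5 reads or more, so a cluster missing from a library was not detected at this depth and may lie below that limit.

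**Figure D5:**
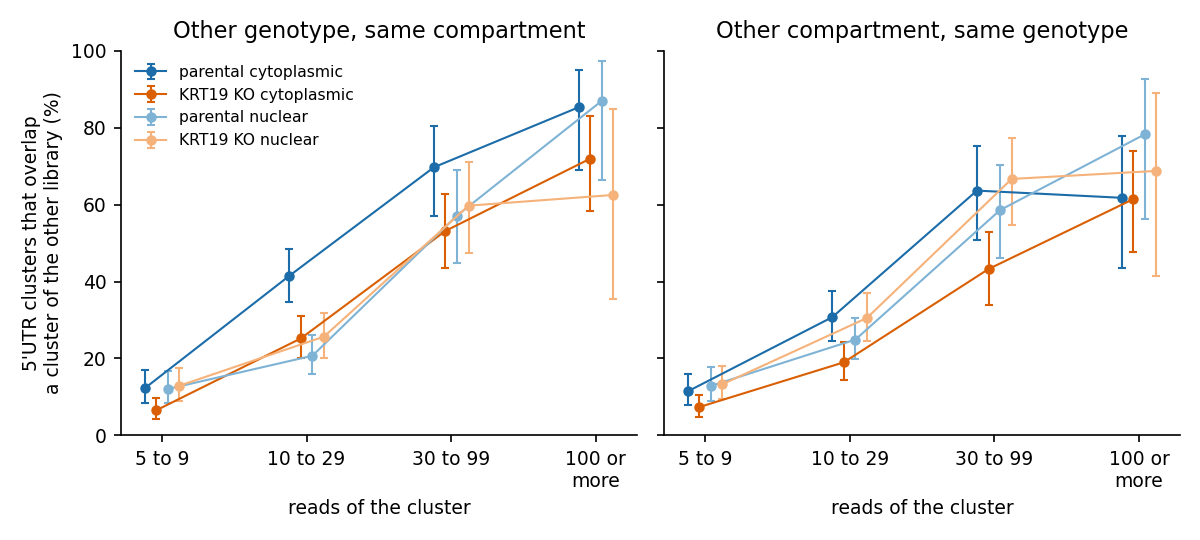
Share of 5'UTR clusters that overlap a cluster of another library (percent, with 95% exact binomial intervals) by the reads of the cluster, against the other genotype (left) and the other compartment (right). In parental cytoplasm the share against *KRT19* KO cytoplasm goes from 12.2% at 5 to 9 reads to 85.3% at 100 or more.

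In parts of the genome a missing site cannot be told apart from a missing region. In chromosome 6 from 29 to 33 Mb, which holds the major histocompatibility complex, parental cytoplasm had 397 clusters of any class, *KRT19* KO cytoplasm 1, and the nuclear libraries had none. The 11 parental cytoplasmic 5'UTR clusters there, in 10 genes with 1316 reads, include the 1087 reads of PPP1R10 (a regulator of protein phosphatase 1), which therefore cannot be compared between libraries. In 30 windows of 1 Mb a library had 20 clusters or more and another at most 1, and in 29 of these parental cytoplasm had the most. They held 16 of its 559 5'UTR clusters and none of the other libraries. On sequences outside the main chromosomes the other three libraries held 221 to 269 clusters, and parental cytoplasm none. Why the tables differ was not tested.

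A site that a library had alone, despite high reads, was that of EIF4G2 (DAP5, an initiation factor that works without the cap-binding protein). *KRT19* KO nucleus had 626 reads there, 176 of them unique, with 35.6% converted, and no other library had a cluster at that place. In the other three libraries EIF4G2 had 900, 5546 and 61 reads in parental cytoplasm, *KRT19* KO cytoplasm and parental nucleus over all its clusters, with a 5'UTR cluster of 12 reads elsewhere in *KRT19* KO cytoplasm.

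Gene lists placed these sites among pathways. Of 18322 genes with any cluster in any library, 6.84% had a 5'UTR cluster, and of 9962 with a cluster in a UTR or coding sequence 12.6% did. Translation factors had 12 of 35 genes with such a cluster (34.3%), led in reads by EIF4G2, PABPC1 and PABPC4. PABPC1, the main cytoplasmic poly(A) binding protein, had 70 reads in parental cytoplasm, 110 in *KRT19* KO cytoplasm, 42 in parental nucleus and 18 in *KRT19* KO nucleus. Cytosolic ribosomal proteins, whose mRNAs begin with a pyrimidine tract at the cap, had 13 of 53 (24.5%), each in at most 2 libraries and with at most 30 reads in any, RPS26 being the deepest. None of the 79 ribosomal protein genes had a 5'UTR cluster in all 4 libraries. Over all genes only 89 of 18322 did, so nothing is drawn from this absence.

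Early response and other transcription factors had 10 of 32 (31.2%). FOSL2, an AP-1 subunit, had 145, 113, 109 and 68 reads in the order used above and was present in every library, as was NFKB1, with 25, 26, 12 and 15 reads. SOX9 had 139 reads in *KRT19* KO cytoplasm, 8 in parental nucleus and no cluster in the others. Stress response and upstream open reading frame mRNAs had 8 of 26 (30.8%), with DDIT3 (CHOP) at 48, 127, 17 and 49 reads and HSP90AB1 at 27, 58, 6 and 14. The DDIT3 clusters lay in an intron of a canonical transcript.

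HNRNPK, its paralogs and other hnRNP genes had 8 of 30 (26.7%), led by HNRNPC, SR splicing factors 4 of 14 (28.6%), led by SRSF11 with 107, 121, 192 and 65 reads, and cytoskeleton and adhesion 13 of 50 (26.0%), led by VIM with 20 and 54 reads in the cytoplasmic libraries. Growth factor signalling had 8 of 39 (20.5%), with MAP2K2 deepest at 34 reads in *KRT19* KO cytoplasm. None of its 36 genes with a cluster in parental cytoplasm had one in the 5'UTR, against 3.33% of all genes there. The p53 network and cell cycle list had 5 of 33 (15.2%), led by E2F3, with 26, 64 and 21 reads in all libraries but parental nucleus. No list was set against genes of a matched level, and nothing particular to a list is drawn from its share.

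Genes named in earlier work on HNRNPK had few reads in the 5'UTR, though the median 5'UTR cluster of a library also held only 10 or 11. HNRNPK itself had a cluster of 6 reads in *KRT19* KO cytoplasm, MYC a cluster of 9 reads in parental nucleus and MDM2 a cluster of 5 reads in *KRT19* KO cytoplasm. EIF4E and SRC had no 5'UTR cluster in any library, against 341 to 501 and 59 to 294 reads over their other clusters. KRT19, the disrupted gene, had no 5'UTR cluster, and its only clusters were intronic, with 7 reads in parental and 5 in *KRT19* KO cytoplasm, which is too few to check the genotype.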

How the data were processed

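HNRNPK PAR-CLIP clusters of 4 libraries of MDA-MB-231 cells were analysed, and the 17 RNA-seq samples of the series are not analysed here. Per the methods of the study, reads were demultiplexed with bcl2fastq (2.20.0), collapsed against PCR duplicates before adapters and UMIs were trimmed, aligned to hg19, and grouped into clusters with PARalyzer within PARpipe, whose versions and annotation are not given in the sources used here. The submitters' notes also list TopHat, Cufflinks and hg38 for all samples, without a role. The deposited tables give each cluster its class, sequence and read counts, and conversion as a fraction of reads. The authors' counts were used as deposited. They held 3252800 to 6216226 reads and 177530 to 201726 clusters per library, each of at least 5 reads.

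Members are all clusters whose class is 5'UTR. From the counts, shares with exact (Clopper-Pearson) 95% intervals, base composition, motif matches, overlaps (1 nt or more on the same strand), merged loci and reads per 1000000 cluster reads (RPM) were computed with Python 3.11.15, numpy 2.4.6, pandas 2.3.3, scipy 1.17.1, pysam 0.24.0 and edlib 1.3.9.post1. Clusters were placed on GENCODE version 44 lifted to GRCh37 by their centre, over the transcripts of all protein-coding genes on the strand. The motif, overlap and locus code was tested on simulated data, and the interval code was not. With 1 library per condition no test was run. Called means a ratio of at least 2.

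The members and gene lists were chosen with earlier results of these data known. Named genes were the 12 with the highest mean level among those with a 5'UTR cluster in all libraries, the 5 with most clusters, the 5 with most reads in each library, the 4 highest and 4 lowest ratios between the cytoplasmic libraries and between the parental fractions (at least 30 reads in each), HNRNPK, EIF4E, MYC, SRC, MDM2 and KRT19, and the 3 with most reads in each list. One gene that this rule named is not reported here. The MHC and MTRNR2L results were singled out after their values were seen.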

Additional observations from a re-analysis of the deposited data

Results flagged for a closer look

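The share of cluster reads in 5'UTR clusters changed in opposite directions in the 2 compartments and in the 2 genotypes. *KRT19* KO minus parental was 2.22 percentage points in cytoplasm and -0.209 in nucleus. The cytoplasmic share minus the nuclear one was -0.164 for parental cells and 2.26 for the KO. As no condition had a replicate, the difference between these effects was not tested. Without MTRNR2L genes each pair had one direction: *KRT19* KO minus parental was 0.213 in cytoplasm and 0.0242 in nucleus, and the cytoplasmic share minus the nuclear one was 0.0707 for parental cells and 0.259 for the KO. With clusters of any class at the same loci the values were 1.58 and 0.343, and 0.501 and 1.74. These again include MTRNR2L12. It held 36909 of the 60780 reads at such loci in parental cytoplasm and 123973 of 166474 in *KRT19* KO cytoplasm. In parental nucleus it held 8387 of 21013, and in *KRT19* KO nucleus 17961 of 30473.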

How the results depend on the processing

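Each condition had 1 library, so no library could be left out in turn. No paired analysis was possible because each condition has 1 library and no test was run. Of the values recomputed, 49 moved by less than their interval or margin and 60 by more, and the cause was not tested. Values are in the order parental cytoplasm, *KRT19* KO cytoplasm, parental nucleus, *KRT19* KO nucleus unless named. With at least 2 conversion locations the share of clusters was 0.309, 0.358 and 0.394% (not *KRT19* KO cytoplasm). The share of reads was 0.484, 2.198, 0.692 and 0.440% with unique reads, 0.351, 0.664, 0.357 and 0.360% without the deepest 5'UTR cluster, 0.638 and 0.354% without MTRNR2L genes (*KRT19* KO cytoplasm, parental nucleus), and 1.09, 2.68 and 0.937% with any class at the loci (not parental nucleus). T-to-C was 52.3, 65.5, 56.8 and 63.8% with at least 10 reads, 59.9, 56.0 and 71.0% without the deepest cluster (not *KRT19* KO nucleus), 79.3, 75.3, 85.4 and 86.1% counting each cluster once, and 55.5 and 70.8% without MTRNR2L genes (*KRT19* KO cytoplasm, parental nucleus).

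C content was 32.1, 25.4, 30.1 and 39.0% weighted by reads, 35.5, 38.2, 39.1 and 40.7% in canonical 5'UTR exons, and 36.8 and 37.1% with at least 10 reads (KO libraries). The motif share was 50.2, 52.1, 50.6 and 51.3% with at least 10 reads, 57.2, 62.8, 62.0 and 66.1% for CCC alone, and 48.5 and 50.4% in canonical 5'UTR exons (nuclear libraries). Overlap with another library was 63.0, 48.8 and 51.6% with at least 10 reads in both (not parental nucleus) and 34.6, 49.3 and 47.8% in canonical 5'UTR exons (not parental cytoplasm). The median distance from the start of the longest coding transcript was 946, 470, 842 and 862.5 nt, against 66 to 88 nt from the nearest start. With unique reads, 7 loci rather than 4 were at least 2 times lower in *KRT19* KO than in parental cytoplasm.

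The alternatives without MTRNR2L genes, with any class at the loci, in canonical 5'UTR exons and without chromosome 6 from 29 to 33 Mb were chosen after seeing the data. Clusters under 5 reads are not listed, which limits every statement on absence.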

Other observations

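Clusters at the borders of the 5'UTR had classes of their own. Start codon clusters numbered 43 in parental cytoplasm, 62 in *KRT19* KO cytoplasm, 21 in parental nucleus and 14 in *KRT19* KO nucleus, and clusters across a 5'UTR and intron junction 27, 24, 42 and 43. The first kind was more frequent in the cytoplasmic libraries and the second in the nuclear ones.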
